A study of Mus musculus with 48 samples.

Results

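The 50 genes described here encode parts of the motile cilium and the regulators that build it: the inner and outer dynein arms that drive the beat, the factors that assemble those arms, the nexin-dynein regulatory complex, the radial spokes, the central pair apparatus, proteins of the microtubule doublets and regulators of multiciliated cells. They are 50 of the 52636 genes in the expression table. They were taken by symbol, 48 under their own symbol and 2 (*Dnai1* and *Dnai2*) under the older symbols *Dnaic1* and *Dnaic2*, and lie on 18 chromosomes. The list was chosen from measured values: *Meig1*, a transcript antisense to *Zmynd10* and a transcript inside *Drc1* had been among the largest differences between Brd1+/- and WT mice given fluoxetine, so that contrast, and the comparisons that use the same fluoxetine libraries, are described below by their values, with no p-value, and nothing is read from their counts. The tissue was right amygdala (AMG), according to the sample labels, punched from frozen coronal sections of female mice aged 8 to 11 weeks, although the design text of the series names striatum, caudate putamen and anterior cingulate cortex. Mice of the C57BL/6NTac-Brd1 line were WT or heterozygous for a targeted deletion of *Brd1* exons 3 to 5 in the whole animal (Brd1+/-), and had been injected on each of 2 days with saline as vehicle, with imipramine (IMN) at 10 mg/kg, or with fluoxetine (FLX) at a dose of 5 mg/kg. All had gone through the tail suspension, open field and forced swim tests before sacrifice, controls included. RNA sequencing gave 1 library per mouse, 48 in all, 8 in each of the 6 groups of genotype and treatment.

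Motile cilia stand in tufts on the ependymal cells that line the brain ventricles, where their beat moves cerebrospinal fluid. The epithelium of the choroid plexus carries tufts of cilia too. The beat comes from dynein motors that slide neighbouring microtubule doublets of the axoneme against each other, while the radial spokes, the central pair and the nexin-dynein regulatory complex time the motors. FOXJ1 is the transcription factor best known for switching on this gene program, and it acts together with RFX factors, which bind a sequence called the X-box. Neurons and astrocytes carry a primary cilium instead, which lacks dynein arms and a central pair. *Ttr* encodes transthyretin, the main secreted protein of the choroid plexus, and serves here as a gauge of choroid plexus content in each punch.

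The values were transcript abundances (TPM), which correct for gene length and library total but keep no read depth, so the precision behind single values is unknown. *Brd1* averaged 35.6 ± 5.09 TPM (SD, n = 8) in WT vehicle and 25.95 ± 2.90 in Brd1+/- vehicle mice, 36.9 ± 2.83 and 23.4 ± 4.84 after IMN, and 32.9 ± 4.45 and 23.5 ± 3.49 after FLX. The punches differed in their cell content. *Slc17a7*, the vesicular glutamate transporter of excitatory neurons in cortex and basolateral amygdala, ran from 1.87 to 1346 TPM. *Ttr* ran from 0 in 3 libraries to 28369 TPM, with group medians between 3.40 (WT IMN) and 104.5 TPM (Brd1+/- vehicle), and was above 500 TPM in 12 libraries, 1 in each WT group and 3 in each Brd1+/- group. *Drd2*, the dopamine receptor of striatal projection neurons, was above 100 TPM in 10 libraries. Sample codes of the vehicle libraries did not overlap in range with those of the drug libraries, so that treatment and code range cannot be told apart in the comparisons of drug with vehicle, and what a code stands for was not given. In tissue of this kind fewer cells of a type and less RNA per cell cannot be told apart either.

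Promoter sequence from RefSeq (GRCm38.p6) was found for 43 of the 50 genes, with 51 start sites in all. The 250 bases before each start were searched on both strands for GTTGCCA (the half-site of the X-box), for the X-box pair (GTTNCC and GGNAAC with 2 bases between them) and for TGTTTAC (a forkhead core, the motif class of FOXJ1). GTTGCCA stood before 8 of the 51 starts (15.7%), compared with 3.66% of all 32851 RefSeq starts, and these belonged to *Ccno*, *Cfap44*, *Deup1*, *Drc1*, *Hydin*, *Mcidas*, *Mns1* and *Tekt1*. TGTTTAC stood before the starts of *Ak7* and *Cfap43*, which is 3.92% of the starts of the list and 3.17% of all starts. The X-box pair in this exact spelling, present before 0.374% of all starts, was found before 0 of the 51. Looser spellings were not searched. In the *Cfap44* and *Hydin* sequences below gttgct stands 2 bases before GGCAAC, a near spelling that was not counted. The 100 bases before the start are given for 4 of the genes whose match lay close to the start. They are also given for *Zmynd10* and the outermost of 3 *Meig1* starts, which held no match in 250 bases. *Zmynd10*, *Meig1* and *Drc1*, the last with a match, are the genes behind the choice of the list. Capitals mark the match, written in the direction of the gene. *Drc1* lies on the plus strand (chr5:30281293-30281392), *Cfap44* on the plus strand (chr16:44394699-44394798), *Hydin* on the plus strand (chr8:110266877-110266976), *Tekt1* on the minus strand (chr11:72361883-72361982), *Zmynd10* on the plus strand (chr9:107547204-107547303) and *Meig1* on the minus strand (chr2:3422649-3422748). A match describes the letters and is no evidence of binding.
Drc1: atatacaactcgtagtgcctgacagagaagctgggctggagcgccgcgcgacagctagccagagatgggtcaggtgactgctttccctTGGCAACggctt
Cfap44: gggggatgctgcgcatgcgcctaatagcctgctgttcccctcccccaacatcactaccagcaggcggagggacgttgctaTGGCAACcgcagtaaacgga
Hydin: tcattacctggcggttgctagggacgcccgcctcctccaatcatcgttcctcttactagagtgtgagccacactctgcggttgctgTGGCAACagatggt
Tekt1: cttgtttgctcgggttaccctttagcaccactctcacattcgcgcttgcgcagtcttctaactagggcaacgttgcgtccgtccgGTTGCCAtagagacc
Zmynd10: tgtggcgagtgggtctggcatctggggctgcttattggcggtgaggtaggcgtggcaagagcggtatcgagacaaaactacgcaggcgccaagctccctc
Meig1: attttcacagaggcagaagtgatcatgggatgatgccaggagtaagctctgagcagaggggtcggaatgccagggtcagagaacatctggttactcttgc

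The 50 genes were far from uniform in level. Mean TPM over the 48 libraries ran from 0.152 for *Dnaaf1*, a dynein arm assembly factor, to 33.2 for *Ccdc39*, which with *Ccdc40* sets the repeat length of the axoneme. 5 genes averaged at least 10 TPM (*Ccdc39*, *Rsph9*, *Drc1*, *Cfap69* and *Cfap44*) and 11 averaged under 1 TPM, among them the dynein heavy chains *Dnah3*, *Dnah5*, *Dnah10*, *Dnah11* and *Dnah12*. 9 genes reached 1 TPM in each of the 48 libraries (*Foxj1*, *Drc1*, *Dnah1*, *Dnai1*, *Rsph9*, *Spag6l*, *Cfap69*, *Ccdc39* and *Mns1*), while 20 did so in fewer than 24 libraries. 27 genes were listed at 0 in at least 1 library, and *Dnaaf1*, *Cfap52*, *Dnah12* and *Dnah11* in more than 24. A value listed at 0 may be a failed estimate and was not read as absence. Counting did not separate strands in any way stated, and 19 of the genes share exonic bases with an antisense gene (*Zmynd10* with *Gm34106*, *Ccdc39* with *Ttc14*, *Mns1* with *Tex9*), so reads from these could not be assigned with certainty.

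Their spread within groups was wide. The median SD within groups was 1.502 on the log2(TPM + 0.1) scale over the 50 genes, compared with 0.552 over the 27944 genes with at least 0.1 TPM in 8 libraries. *Drc1* had an SD of 0.476 and *Meig1* of 1.93. The summed level of the 50 genes ran from 98.0 to 1266 TPM. In WT vehicle mice it was 98.0 at the lowest, 234.6 at the median and 1266 at the highest, and in Brd1+/- vehicle mice 101.8, 179.2 and 780.4 TPM. After IMN it was 111.8, 176.7 and 265.5 TPM in WT and 106.6, 240.4 and 582.7 in Brd1+/- mice. After FLX it was 130.3, 190.7 and 382.5 TPM in WT and 102.4, 260.3 and 1128 in Brd1+/- mice. The groups overlapped throughout, and the highest sums came from single libraries rather than from a whole group.

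**Figure D1:**
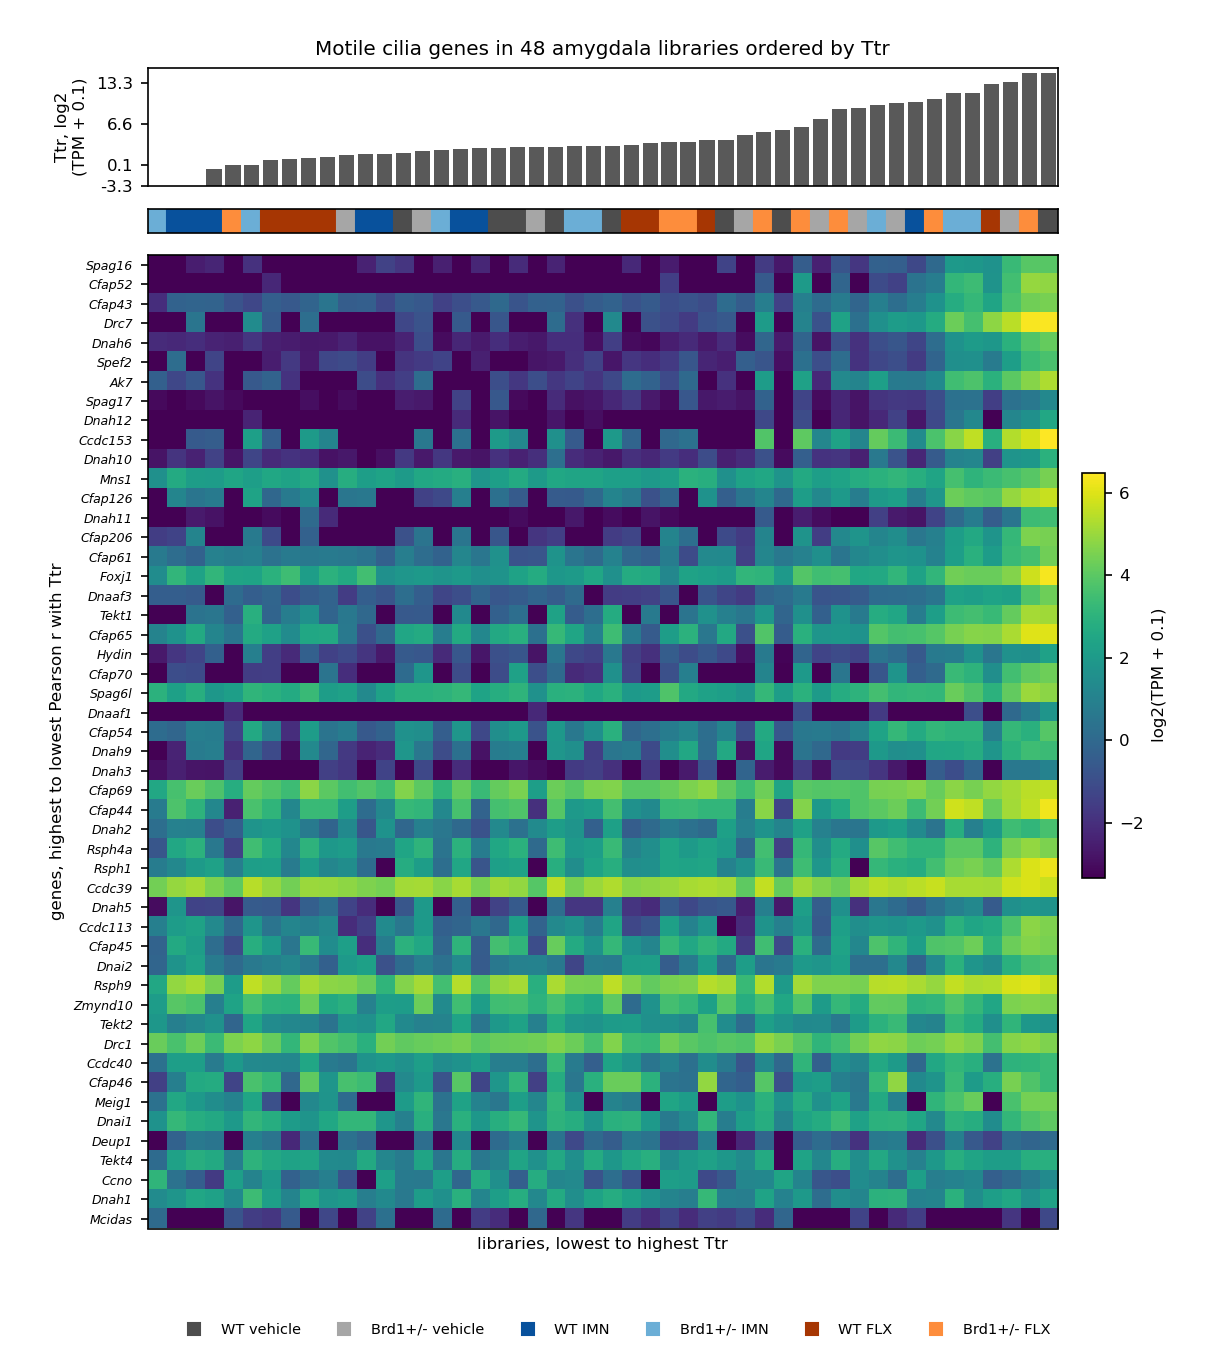
Level of each motile cilia gene (rows, log2(TPM + 0.1), ordered by Pearson correlation with *Ttr*) in each of 48 libraries (columns, ordered by *Ttr*), with *Ttr* as bars on the same log2 scale above and the group of each library as a coloured strip. Rows such as *Spag16*, *Cfap52* and *Dnah6* are dark, near or at 0 TPM, except toward the libraries at the right end with the most *Ttr*, while *Ccdc39*, *Rsph9*, *Drc1* and *Cfap69* are bright across the plot.

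WT vehicle replicate 1 (28369 TPM of *Ttr*) and Brd1+/- FLX replicate 8 (27594 TPM) stood apart. The first held the highest value of the 48 libraries for 29 of the 50 genes and the second for 12, so that these libraries together held the maximum of 41 genes. Their summed levels, 1266 and 1128 TPM, were followed by Brd1+/- vehicle replicate 3 at 780.4, Brd1+/- IMN replicate 4 at 582.7 and Brd1+/- IMN replicate 3 at 554.2 TPM, and these carried 10275, 3164 and 3311 TPM of *Ttr*. Both top libraries had 48 of the 50 genes at 1 TPM or more. Across the 12 libraries over 500 TPM of *Ttr* that number ran from 31 to 48, and across the other 36 from 17 to 39. The summed level had a median of 378.0 TPM (188.7 to 1266) in the 12 and 182.8 TPM (98.0 to 361.6) in the 36, and 9 of the 12 were among the 12 highest sums. The gene's median was higher in the *Ttr*-rich libraries for 47 of the 50 genes, which was not counted over all genes.

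The libraries with the lowest sums had a different makeup. WT vehicle replicate 3, Brd1+/- vehicle replicate 1 and Brd1+/- FLX replicate 2 had summed levels of 98.0, 101.8 and 102.4 TPM, and *Drd2* at 305.0, 249.9 and 294.4 TPM. 7 of the 12 lowest sums came from libraries over 100 TPM of *Drd2*, and apart from WT vehicle replicate 1, which had both *Drd2* (121.8 TPM) and *Ttr* in quantity, no library over 100 TPM of *Drd2* exceeded a sum of 188.7 TPM. *Drd2* was examined after the values had been seen, and its part in the sums was not tested.

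Across all 48 libraries 49 of the 50 genes had a positive Pearson correlation with *Ttr* on the log2(TPM + 0.1) scale, with a median r of 0.56. After Benjamini-Hochberg adjustment over the 100 coefficients, two-sided permutation tests placed 40 genes by Pearson's r and 41 by Spearman's rho below an adjusted p of 0.05, all of them positive. The smallest coefficient called was 0.31 by Pearson (*Tekt2*) and 0.30 by Spearman (*Zmynd10*), and of all 27943 genes with at least 0.1 TPM in 8 libraries, *Ttr* apart, 11.3% reached the first and 10.1% the second, with a median r of 0.06 over all of them. Of those 27943 genes, 62.9% had a positive Pearson correlation with *Ttr*. The *Ttr* values formed a continuous series above 1 TPM, with no gap between neighbours wider than 1.49 on the log2 scale. The highest correlations were those of the central pair gene *Spag16* (r = 0.84, rho = 0.67), *Cfap52* of the microtubule doublets (r = 0.83, rho = 0.72), *Cfap43* (r = 0.82, rho = 0.60), *Drc7* of the nexin-dynein regulatory complex (r = 0.80, rho = 0.67) and the inner arm heavy chain *Dnah6* (r = 0.79, rho = 0.52), for each of which the permutation p of r was 1e-05, the smallest that 100000 permutations can give. At the other end stood *Mcidas* (r = -0.19, rho = -0.16, permutation p adjusted = 0.211 and 0.308), *Dnah1* (r = 0.01, rho = -0.02, permutation p adjusted = 0.939 and 0.906) and *Ccno* (r = 0.02, rho = 0.00, permutation p adjusted = 0.906 and 0.988). *Mcidas* and *Ccno* act early in the making of multiciliated cells and are neighbours on chromosome 13. *Meig1*, *Drc1*, *Dnai1*, *Cfap46*, *Ccdc40*, *Tekt4* and *Deup1* also missed the threshold by Pearson's r, at 0.11 to 0.29.

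The relation rested on the *Ttr*-rich libraries. Without the 2 libraries farthest from the median of *Ttr*, WT vehicle replicate 1 and Brd1+/- FLX replicate 8, the median r was 0.46 and 47 genes stayed positive, *Dnah1*, *Ccno* and *Mcidas* being the exceptions. Within the 16 vehicle libraries the median r was 0.55 with 50 of 50 genes positive, and within the 32 drug-treated libraries 0.62 with 48 of 50. In the 36 libraries up to 500 TPM of *Ttr* the median r was 0.08, with 39 genes positive and a range from -0.24 (*Ccdc113*) to 0.38 (*Spag17*).

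**Figure D2:**
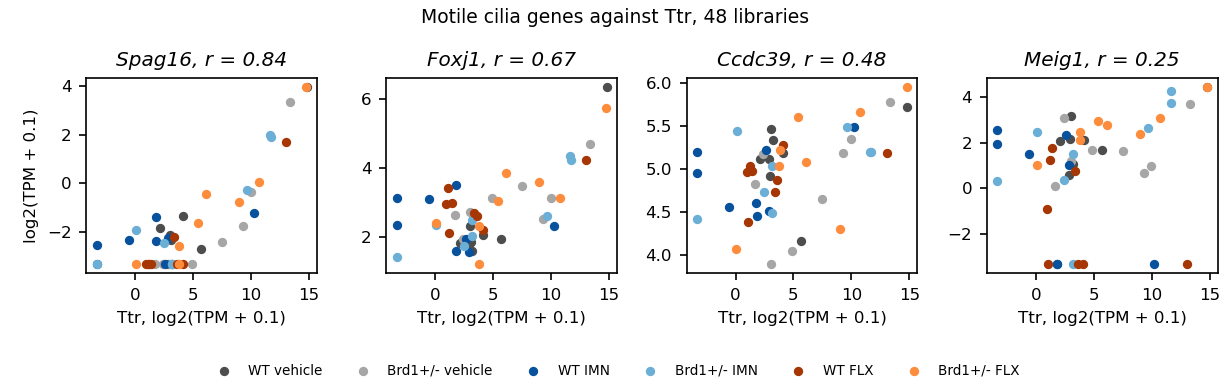
Level of *Spag16*, *Foxj1*, *Ccdc39* and *Meig1* against *Ttr* in the 48 libraries, both axes log2(TPM + 0.1), 1 point per library coloured by group. *Spag16* (r = 0.84) and *Foxj1* (r = 0.67) rise at the *Ttr*-rich end, and *Meig1* (r = 0.25) has libraries at the floor along most of the axis, among them 1 of the 4 with the most *Ttr*.

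*Foxj1*, the master regulator, was above 0 in every library. In vehicle mice it was 2.97 TPM at the lowest, 3.64 at the median and 81.8 at the highest in WT, and 3.79, 7.60 and 25.7 TPM in Brd1+/- mice. With IMN it was 2.90, 4.97 and 11.4 TPM in WT and 2.63, 5.31 and 20.5 in Brd1+/- mice, and after FLX 4.27, 7.04 and 19.0 TPM in WT and 2.24, 8.47 and 54.0 in Brd1+/- mice. All groups overlapped, and in 5 of the 6 the highest *Foxj1* belonged to a library rich in *Ttr*, WT IMN being the exception. Over the 48 libraries *Foxj1* followed *Ttr* with r = 0.67 (permutation p = 1e-05, adjusted p = 0.00018) and rho = 0.45 (permutation p = 0.00122, adjusted p = 0.00549), where the adjustment covers 18 coefficients in 9 sets of libraries. The coefficient was 0.85 in the 16 vehicle libraries (permutation p = 9e-05, adjusted p = 0.00081) and 0.62 in the 32 drug-treated libraries (permutation p = 0.00019, adjusted p = 0.00114). Without the 2 libraries farthest from the *Ttr* median r was 0.56 over 46 libraries (permutation p = 0.00013). In the 36 libraries up to 500 TPM of *Ttr* r was 0.11 (permutation p = 0.522) and rho 0.01 (permutation p = 0.931), so the relation was not detectable there.

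Within single groups of 8 libraries the relation of *Foxj1* to *Ttr* varied. In Brd1+/- IMN mice r was 0.88 (exact permutation p = 0.00313, adjusted p = 0.0113) and in Brd1+/- FLX mice 0.80 (exact permutation p = 0.0220, adjusted p = 0.0396). In Brd1+/- vehicle mice r was 0.75 (exact permutation p = 0.0341, adjusted p = 0.0558), in WT vehicle mice 0.96 (exact permutation p = 0.0803, adjusted p = 0.120) and in WT FLX mice 0.65 (exact permutation p = 0.220, adjusted p = 0.248). In WT IMN mice it was -0.31 (exact permutation p = 0.485, adjusted p = 0.514). The WT groups each held 1 library over 500 TPM of *Ttr*, and WT IMN replicate 1, with 1193 TPM of *Ttr*, had 4.94 TPM of *Foxj1*.

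*Meig1* (ENSMUSG00000026650, chromosome 2, 3409043 to 3422648), known from the assembly of the sperm tail, was low and variable. In vehicle mice it was 1.40 TPM at the lowest, 4.21 at the median and 21.8 at the highest in WT, and 0.989, 2.61 and 12.7 TPM in Brd1+/- mice. After IMN it was 0, 2.35 and 5.80 TPM in WT, with 3 libraries listed at 0, and 0, 4.09 and 19.0 in Brd1+/- mice, with 1 listed at 0. After FLX it was 0, 0.213 and 3.30 TPM in WT, with 4 libraries listed at 0, and 1.93, 6.09 and 21.4 in Brd1+/- mice, with none listed at 0. The lowest level was thus in WT FLX mice and the highest median in Brd1+/- FLX mice, and the pair overlapped between 1.93 and 3.30 TPM. The libraries listed at 0 included WT FLX replicate 2 and WT IMN replicate 1, which had the most *Ttr* of their groups (8383 and 1193 TPM) and had *Foxj1* at 19.0 and 4.94 TPM. Over the 48 libraries *Meig1* correlated with *Ttr* at r = 0.25 (permutation p adjusted = 0.0982) and rho = 0.35 (permutation p adjusted = 0.0206).

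*Drc1* (ENSMUSG00000073102, chromosome 5, 30281388 to 30366695) encodes a core subunit of the nexin-dynein regulatory complex. In vehicle mice it was 15.1 TPM at the lowest, 21.0 at the median and 24.8 at the highest in WT, and 8.41, 19.4 and 27.3 TPM in Brd1+/- mice. With IMN it was 7.49, 18.001 and 22.2 TPM in WT and 12.2, 22.1 and 28.9 in Brd1+/- mice, and after FLX 8.94, 12.6 and 23.3 TPM in WT and 11.4, 21.3 and 29.7 in Brd1+/- mice. Its levels were narrow and overlapped in every pair of groups, with the lowest median in WT FLX mice. *Zmynd10* (ENSMUSG00000010044, chromosome 9, 107547298 to 107551319) encodes an assembly factor of the dynein arms. In vehicle mice it was 4.20, 11.9998 and 24.3 TPM in WT and 4.12, 7.74 and 23.5 in Brd1+/- mice. After IMN it was 1.79, 6.22 and 15.3 TPM in WT and 2.52, 8.52 and 17.3 in Brd1+/- mice, and after FLX 0.989, 5.89 and 19.2 TPM in WT and 5.09, 10.4 and 25.2 in Brd1+/- mice. All groups overlapped here too.

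**Figure D3:**
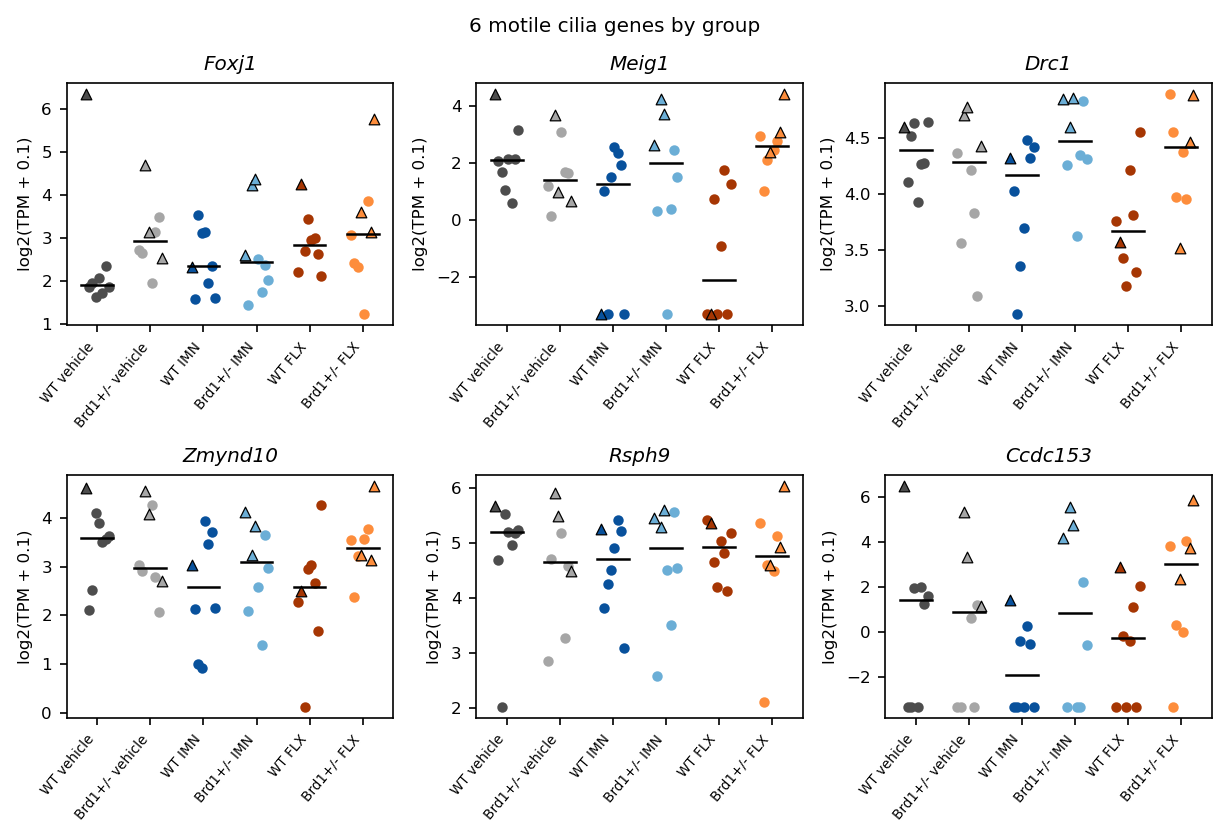
Level of 6 motile cilia genes in each library (points, log2(TPM + 0.1)) by group, with the group median as a line and libraries over 500 TPM of *Ttr* as outlined triangles. The highest point is a triangle in 5 groups for *Foxj1* and in all 6 for *Ccdc153*, and in *Meig1* 4 WT FLX libraries, 1 of them a triangle, lie at the floor.

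Among the structural genes, *Ccdc39* was the most abundant. In vehicle mice it was 17.8 TPM at the lowest, 35.5 at the median and 52.6 at the highest in WT, and 14.8, 32.1 and 54.6 TPM in Brd1+/- mice. With IMN it was 21.8, 27.5 and 44.6 TPM in WT and 21.3, 34.6 and 44.7 in Brd1+/- mice, and after FLX 20.9, 31.2 and 38.6 TPM in WT and 16.8, 35.4 and 61.8 in Brd1+/- mice. *Rsph9*, a radial spoke head protein, was 3.96, 36.3 and 50.8 TPM in WT and 7.14, 25.0 and 59.9 in Brd1+/- vehicle mice. After IMN it was 8.42, 26.1 and 42.6 TPM in WT and 5.87, 31.0 and 48.1 in Brd1+/- mice, and after FLX 17.3, 30.3 and 42.7 TPM in WT and 4.22, 27.3 and 65.3 in Brd1+/- mice. Both overlapped in every pair of groups, and the 5 lowest *Rsph9* values were those of libraries with 215.6 to 305.0 TPM of *Drd2*. *Cfap69*, of the central pair, was 5.17, 21.1 and 47.0 TPM in WT and 4.39, 14.1 and 36.3 in Brd1+/- vehicle mice. With IMN it was 9.92, 13.9 and 26.2 TPM in WT and 5.74, 20.1 and 27.7 in Brd1+/- mice, and after FLX 10.7, 15.9 and 29.7 TPM in WT and 6.76, 18.3 and 45.0 in Brd1+/- mice. *Cfap69* also overlapped in every pair of groups.

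*Cfap44*, which tethers inner dynein arms, and *Cfap45*, inside the doublets, spanned a far wider range. *Cfap44* was 0.289 TPM at the lowest, 11.8 at the median and 77.2 at the highest in WT and 0.154, 6.59 and 35.5 in Brd1+/- vehicle mice. It was 0.768, 5.12 and 13.4 TPM in WT and 1.62, 8.64 and 54.5 in Brd1+/- mice after IMN, and 2.25, 8.63 and 18.5 TPM in WT and 0.0883, 15.7 and 47.4 in Brd1+/- mice after FLX. Its lowest values came from WT vehicle replicate 3, Brd1+/- vehicle replicate 1 and Brd1+/- FLX replicate 2, the 3 libraries with the lowest sums. *Cfap45* was 0.351, 8.83 and 22.8 TPM in WT and 0.226, 3.38 and 19.6 in Brd1+/- vehicle mice. It was 0.145, 2.99 and 8.16 TPM in WT and 0.767, 6.66 and 19.8 in Brd1+/- mice after IMN, and 1.34, 3.43 and 9.83 TPM in WT and 0.392, 8.31 and 25.5 in Brd1+/- mice after FLX. WT mice had the higher *Cfap45* median with vehicle and Brd1+/- mice the higher one with each drug, with overlap throughout.

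*Dnai1*, an intermediate chain of the outer arm, and *Ccdc153* contrasted in their spread. *Dnai1* was 1.69 TPM at the lowest, 7.22 at the median and 16.4 at the highest in WT and 3.28, 6.86 and 8.998 in Brd1+/- vehicle mice. It was 3.47, 6.41 and 9.32 TPM in WT and 1.38, 6.80 and 8.64 in Brd1+/- mice after IMN, and 2.61, 4.86 and 8.63 TPM in WT and 1.54, 4.51 and 13.7 in Brd1+/- mice after FLX. *Dnai1* was above 1 TPM in every library and its medians lay close together. *Ccdc153* was 0, 2.62 and 90.2 TPM in WT and 0, 1.78 and 40.9 in Brd1+/- vehicle mice. It was 0, 0.294 and 2.601 TPM in WT and 0, 2.55 and 47.497 in Brd1+/- mice after IMN, and 0, 0.731 and 7.25 TPM in WT and 0, 9.07 and 58.8 in Brd1+/- mice after FLX. It was listed at 0 in 17 of the 48 libraries, in every group, and its 6 highest values were those of *Ttr*-rich libraries (r = 0.71).

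Differences between groups were tested with limma on log2(TPM + 0.1) across all genes with at least 0.1 TPM in 8 libraries of the comparison, a scale that understates the change of low genes, and a gene was called at a Benjamini-Hochberg adjusted p under 0.05 over all genes tested. In no pair of groups did the values of any of the 50 genes separate without overlap. Separation was not counted over all genes, so nothing particular to the 50 is read from this. Between Brd1+/- and WT vehicle mice, 0 of the 43 motile cilia genes tested were called by limma, where 0.708% of the 24279 genes tested were, and 0 had an unadjusted p under 0.05. 13 had a positive and 30 a negative difference, with a median log2 difference of -0.25 (range -1.65 to 1.01) beside 0.03 over all genes. The smallest adjusted p was that of *Cfap45* (log2 -1.53, SE 0.88, limma adjusted p = 0.694). *Ttr* itself differed by log2 1.66 with an SE of 1.91 and was not called. With *Ttr* as a covariate the median was -0.58, and without the libraries over 500 TPM of *Ttr* it was -0.53.

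After IMN, 40 of the 44 genes tested were higher in Brd1+/- than in WT mice by sign and 4 lower, with a median log2 difference of 0.78 (range -0.26 to 2.34) beside 0.01 over all genes. limma called 0 of the 44, where 0.017% of 23581 genes were called. *Spag6l* of the central pair (log2 0.86, SE 0.29), the inner arm heavy chain *Dnah10* (log2 1.53, SE 0.59) and *Drc1* (log2 0.52, SE 0.24) had an unadjusted p under 0.05, and each had a limma adjusted p of 1.00. *Ccdc153* had the widest difference (log2 2.34, SE 1.42). The difference in *Ttr* was log2 3.30 with an SE of 2.29. With *Ttr* as a covariate the median was 0.34 and 33 of 44 genes were positive, and without the libraries over 500 TPM of *Ttr* it was 0.05 with 23 positive and 21 negative. How far choroid plexus content enters the remaining difference was not tested.

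After FLX, the contrast from whose values the list was chosen, 35 of the 45 genes with a fit were higher in Brd1+/- than in WT mice by sign and 10 lower, with a median log2 difference of 0.66 beside -0.06 over all genes. *Meig1*, one of the genes behind the choice, had the largest value (log2 3.96, SE 0.81). The count past the threshold was 1 of 45 (*Meig1*), beside 1.54% of all 23635 genes, and restates the choice of the list. It was 0 in 1 fit of all 48 libraries, with the replicate block, with code range (low against high codes within the drug libraries) as a term, and without the *Ttr*-rich libraries. It was also 0 without WT FLX replicate 1, 2 or 7 or Brd1+/- FLX replicate 5, 7 or 8. *Meig1* was followed by *Cfap206* of the radial spokes (log2 2.73, SE 0.94) and *Ccdc153* (log2 2.66, SE 1.26), while *Drc1* (log2 0.60, SE 0.22) and *Zmynd10* (log2 1.00, SE 0.45) lay lower. The median with *Ttr* as a covariate was 0.09, with 24 genes positive and 21 negative, and without the libraries over 500 TPM of *Ttr* 0.35. *Meig1* had log2 3.98 with *Ttr* as a covariate and log2 3.28 without the *Ttr*-rich libraries. *Ttr* differed by log2 3.10 with an SE of 1.98.

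**Figure D4:**
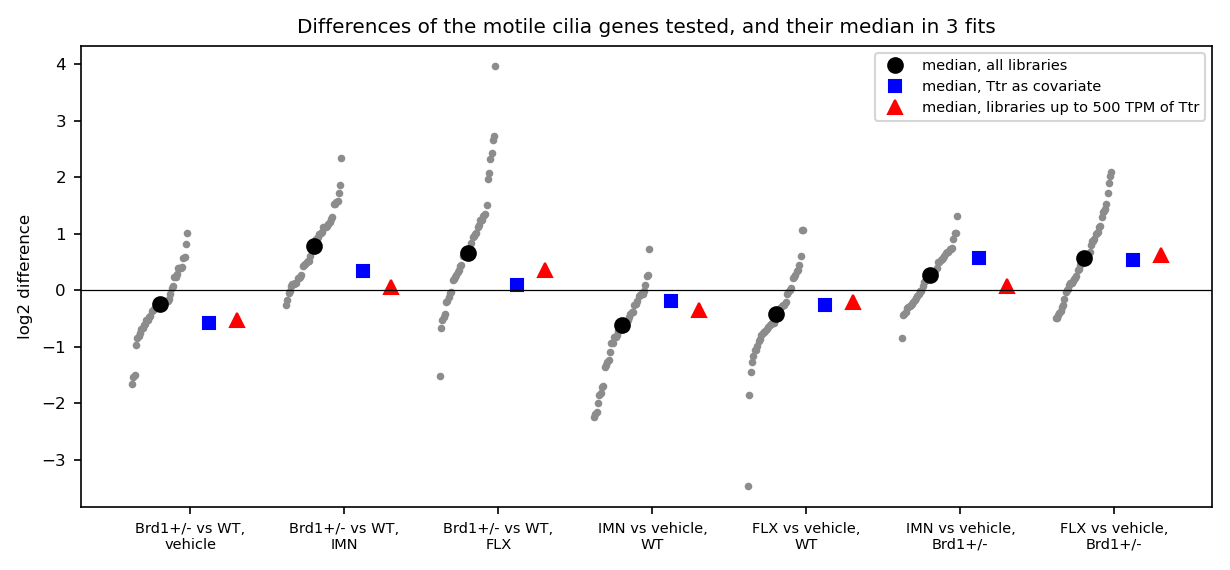
Log2 difference of each motile cilia gene tested (grey points, sorted) in 7 comparisons, with the median from all libraries (black circle), with *Ttr* as a covariate (blue square) and from libraries up to 500 TPM of *Ttr* (red triangle). In the genotype comparisons after IMN and FLX the medians of 0.78 and 0.66 shrink to 0.34 and 0.09 with the covariate, and *Meig1* is the highest point after FLX (3.96).

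In WT mice, IMN compared with vehicle gave 4 positive and 38 negative differences among 42 genes, with a median log2 of -0.62 beside 0.00 over all genes. limma called 0 of the 42 and 0 of all 23644 genes (0%), with 1084 of all genes and 6 of the list at an unadjusted p under 0.05. Those 6 were lower after IMN by sign: *Meig1* (log2 -2.24, SE 0.98), *Cfap70* (log2 -2.19, SE 0.98), *Tekt1* (log2 -2.15, SE 0.94), *Dnah9* (log2 -1.86, SE 0.87), *Cfap45* (log2 -1.82, SE 0.81) and *Dnah2* (log2 -1.32, SE 0.54), each with a limma adjusted p of 0.970. Without WT vehicle replicate 1 the median was -0.32, without the libraries over 500 TPM of *Ttr* -0.36, and with *Ttr* as a covariate -0.20.

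FLX compared with vehicle in WT mice, which uses the same FLX libraries as the contrast behind the list, gave 11 positive and 31 negative differences among 42 genes and a median log2 of -0.42 beside 0.05 over all genes. The count past the threshold was 0 of 42 by limma, beside 0.335% of all 23557 genes. *Meig1* had the lowest value (log2 -3.47, SE 0.85). *Cfap54* of the central pair (log2 -1.45, SE 0.58), *Zmynd10* (log2 -1.06, SE 0.47) and *Drc1* (log2 -0.64, SE 0.18) were also lower by sign. The count was 2 without WT vehicle replicate 1 (*Meig1* at log2 -3.14 and *Foxj1* at log2 0.999), 1 without WT FLX replicate 6 (*Meig1* at log2 -3.91) and 2 without WT FLX replicate 8 (*Meig1* at log2 -3.84 and *Drc1* at log2 -0.76). The median without WT vehicle replicate 1 was -0.08, with *Ttr* as a covariate -0.27 and without the libraries over 500 TPM of *Ttr* -0.21.

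In Brd1+/- mice the drug comparisons called 0 motile cilia genes by limma, the FLX one again with libraries of the contrast behind the list. IMN compared with vehicle gave 28 positive and 16 negative differences among 44 genes, a median log2 of 0.27 and 0 genes at an unadjusted p under 0.05, where 0.776% of 24225 genes were called. FLX compared with vehicle gave 38 positive and 9 negative among 47 and a median log2 of 0.57, where 0.731% of 24336 genes were called. The IMN median was -0.02 without Brd1+/- IMN replicate 3 and the FLX median 0.15 without Brd1+/- FLX replicate 8, both libraries rich in *Ttr*. With *Ttr* as a covariate the IMN median was 0.57 and the FLX median 0.53. Without all libraries over 500 TPM of *Ttr* the IMN median was 0.08 and the FLX median 0.63.

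FLX and IMN compared with each other gave 0 calls among the 42 genes tested in WT mice, where 0 of all 23501 genes were called (0%) and 1123 had an unadjusted p under 0.05, with a median log2 of 0.33. In Brd1+/- mice 0 of 48 were called, where 0 of all 23724 genes were called (0%) and 709 had an unadjusted p under 0.05, with a median log2 of 0.27 that turned to -0.09 with *Ttr* as a covariate and to -0.02 without Brd1+/- FLX replicate 8. By sign, 34 of the 48 were higher and 14 lower after FLX. Without the libraries over 500 TPM of *Ttr* the median was 0.49, with 42 higher and 6 lower. With no library left out, and again with FLX libraries of the contrast behind the list, *Tekt2*, a tektin inside the doublets, had the lowest value (log2 -1.002, SE 0.35), and *Dnah1* had log2 -0.72 (SE 0.33).

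The interaction, which asks whether the drug difference itself differed between genotypes, was fitted on 4 groups. For IMN limma called 0 of the 46 genes tested, where 0.536% of 26673 genes were called, and 4 had an unadjusted p under 0.05: *Rsph1* (log2 3.04, SE 1.46), *Cfap45* (log2 2.83, SE 1.24), *Spag6l* (log2 1.196, SE 0.50) and *Drc1* (log2 0.77, SE 0.33), with limma adjusted p of 0.452 to 0.533. 37 of the 46 were positive, and the median log2 was 1.05, or 0.58 without WT vehicle replicate 1. It was 0.73 with *Ttr* as a covariate and 0.59 without the libraries over 500 TPM of *Ttr*. For FLX, built on the contrast from which the list was chosen, *Meig1* had the largest value (log2 4.49, SE 1.02). The count past the threshold was 1 of 49 (*Meig1*), beside 1.71% of all 26657 genes, and again restates the choice. Of the 49, 38 were positive, with a median log2 of 1.17 beside -0.10 over all genes, and 0.77 without WT vehicle replicate 1. This median was 0.83 with *Ttr* as a covariate and 1.04 without the libraries over 500 TPM of *Ttr*.

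By role, in vehicle mice the median log2 difference between genotypes was -0.48 for the 9 central pair genes, -0.46 for the 5 radial spoke genes, -0.36 for the 6 outer arm genes and -0.20 for the 8 inner arm genes, and 0.03 for the 7 microtubule doublet proteins. After IMN these medians were 0.95, 0.60, 0.26, 1.01 and 0.95. The 4 regulators of multiciliated cells, *Foxj1*, *Mcidas*, *Ccno* and *Deup1*, had medians of 0.31 in vehicle mice and 0.17 after IMN, and the widest range of correlation with *Ttr* (-0.19 to 0.67) of the roles. Central pair genes ranged from 0.28 (*Cfap46*) to 0.84 (*Spag16*). The medians by role cover only genes tested, 43 of the 50 in vehicle mice and 44 after IMN. The gene numbers given are the full sizes of the roles.

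Other lists were set beside the 50 genes. Among 87 further motile cilia genes, 65 were tested between genotypes in vehicle mice with a median log2 of -0.13, and 62 after IMN with a median of 0.42, and limma called 0 in both. After FLX 64 were tested with a median of 0.35, and *Tekt5* had log2 -1.46 (SE 0.32), the 1 gene of these past the threshold in the contrast behind the list, beside 1.54% of all genes. The 45 genes of the primary cilium and intraflagellar transport, which neurons share, had medians of -0.03, 0.07 and -0.01 in vehicle, IMN and FLX mice with 0 calls by limma, and a median SD within groups of 0.342. In the FLX interaction *Ift52* of this list had log2 -0.51 (SE 0.12). Of the 20 choroid plexus genes, with *Ttr*, *Slc4a2* and *Car12* the most abundant, 18, 17 and 18 were tested. Their medians were 0.78, 1.32 and 0.90 with 0 calls by limma, and the list had a median SD of 2.67. Of the 12 ependymal genes outside the axoneme, 11 were tested, and *Tmem212*, listed at 0 in most libraries, was the gene left out. The medians of the 11 in vehicle, IMN and FLX mice were 0.37, -0.01 and -0.03, with 0 calls by limma, and say nothing of *Tmem212*.

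The 5 protein-coding genes outside the list whose level ran closest to the mean log2(TPM + 0.1) of the 50 genes, over 48 libraries and 16216 candidates, were *Ttc21a* (r = 0.93, 0.220 to 31.1 TPM), *2410004P03Rik* (r = 0.93, 0 to 20.2 TPM), *Prelp* (r = 0.92, 4.41 to 87.8 TPM), *Maats1* (r = 0.92, 0 to 17.2 TPM) and *Efcab1* (r = 0.91, 3.70 to 35.3 TPM). The choroid plexus gene *Kl* ranked 31st at r = 0.87, the ependymal gene *Tmem212* 51st at r = 0.86, *Folr1* 130th at r = 0.80 and *Ttr* 244th at r = 0.75. These coefficients describe points that share their libraries and carry no test.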

How the data were processed

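RNA from right amygdala punches of 48 female mice (6 groups, 8 libraries each) was sequenced. Per the labels and the study's methods, the authors trimmed reads (Trimmomatic, FastQC), aligned them to GRCm38 with HISAT2 2.1.0 and estimated expression with StringTie 1.3.4, and the deposited values are TPM per gene. Whether counting used strand is not given in the sources used here. Columns summed to between 999523.613 and 999772.345 TPM, with 23420 to 27252 genes above 0 per library. TPM keeps no read depth, so no counting interval is given.

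Each comparison was fitted on log2(TPM + 0.1) with limma 3.58.1 (R 4.3.3, eBayes with trend) on its own groups, over genes with at least 0.1 TPM in 8 of the libraries fitted, with Benjamini-Hochberg adjustment over all genes tested. The p-values measure the spread between the mice sampled. Comparisons of 1 genotype or treatment share libraries. Correlations with *Ttr*, *Drd2* and *Mbp* used two-sided permutation tests (100000 permutations, exact for 8 libraries), in Python 3.11.15 with scipy 1.17.1. Scripts were tested on simulated data. The members and gene lists were chosen with earlier results of these data known. All 50 genes could be named. Values in every group are given for *Foxj1*, *Meig1*, *Drc1*, *Zmynd10* and the gene with the highest mean TPM in each role. Outside the list, *Ttr*, leading genes of other lists and the 5 closest genes by correlation could be named. The share of all genes reaching the smallest correlation with *Ttr* called among the 50 was added after the data had been seen. Alternatives were other pseudocounts (0.01 and 1), filters, scalings, 1 fit of all 48 libraries, a replicate block, *Ttr* or code range as a term, and leaving out each library. The code range term set vehicle codes 121 to 127 against 130 to 155, and drug codes 351 to 394 against 402 to 445. Leaving out libraries over 500 TPM of *Ttr*, and the values of *Drd2* and *Mbp*, were added after the data had been seen. Gene coordinates are GRCm38.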

Additional observations from a re-analysis of the deposited data

Results flagged for a closer look

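Within groups of 8, a gap test on log2(TPM + 0.1) (Dixon, 95% level) singled out 12 values in 78 tests, and chance gives about 1 in 20 groups. On the high side these were WT vehicle replicate 1, with *Foxj1* at 81.8 TPM, *Ttr* at 28369 TPM and a summed level of the 50 genes of 1266 TPM, and the *Ttr* values of WT IMN replicate 1 (1193 TPM) and WT FLX replicate 2 (8383 TPM). On the low side WT vehicle replicate 3 stood apart for *Cfap44* (0.289 TPM), *Rsph9* (3.96 TPM), *Cfap69* (5.17 TPM) and *Cfap45* (0.351 TPM), and Brd1+/- FLX replicate 2 for *Cfap44* (0.0883 TPM), *Rsph9* (4.22 TPM) and *Cfap45* (0.392 TPM). The latter pair of libraries had 305.0 and 294.4 TPM of *Drd2*. The FLX difference of *Meig1* differed between genotypes by log2 4.49, a value that belongs to the contrast from which the list was chosen.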

How the results depend on the processing

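No difference or correlation changed direction in a called result. The count of motile cilia genes past the threshold between genotypes after FLX, 1 (*Meig1*), became 0 in 1 fit of all 48 libraries, with the replicate block, with sample code range as a term and without the libraries over 500 TPM of *Ttr*, which describes the gene that chose the list. Leaving out single libraries gave 0 to 1, with 0 without WT FLX replicate 1, 2 or 7 or Brd1+/- FLX replicate 5, 7 or 8. The FLX interaction count of 1 became 0 in the fit of all 48 libraries and without the *Ttr*-rich libraries. The count for FLX against vehicle in WT mice, 0, ran from 0 to 2 when single libraries were left out. In the 36 libraries up to 500 TPM of *Ttr*, the correlation of *Foxj1* with *Ttr* was 0.11. The causes were not tested. Of 340 alternative counts 325 were unchanged or within 1.5 times, but most of these were 0 in comparisons whose count was already 0. The 15 that moved lay in the FLX comparisons named above. Median log2 differences turned sign in 2 comparisons within Brd1+/- mice, to -0.02 for IMN against vehicle without Brd1+/- IMN replicate 3, and to -0.09 with *Ttr* as a covariate and -0.02 without Brd1+/- FLX replicate 8 for FLX against IMN. Single libraries also moved medians: the vehicle genotype median was -0.07 without WT vehicle replicate 1 and -0.55 without Brd1+/- vehicle replicate 3, the IMN one 0.49 without Brd1+/- IMN replicate 4, and the FLX one 0.36 without Brd1+/- FLX replicate 8 and 1.04 without Brd1+/- FLX replicate 2.

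The replicate numbers were not treated as pairing: at most 4 of 8 same-numbered pairs had a correlation of deviations over 0.1. With the replicate block the count was 0 for FLX between genotypes and 1 for the FLX interaction, and 0 in the other comparisons.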

Other observations

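With *Drd2*, chosen after the data had been seen, the motile cilia genes had a median Pearson r of -0.37 over 48 libraries (-0.23 in the 16 vehicle and -0.52 in the 32 drug-treated libraries). The most negative was the radial spoke gene *Rsph9* (r = -0.73), followed by *Hydin* of the central pair and *Rsph4a* of the spokes (both r = -0.67), and *Mcidas* (r = 0.63) and *Ccno* (r = 0.41), early regulators of multiciliated cells, were positive. With *Mbp*, the myelin basic protein of oligodendrocytes, also chosen after the data had been seen, the median r was 0.02. The outer arm intermediate chains *Dnai2* (r = 0.56) and *Dnai1* (r = 0.45) and *Foxj1* (r = 0.51) were positive, while *Drc1* (r = -0.55) was negative. These coefficients describe libraries that differ in several markers at once. By permutation tests of Pearson's r, 34 genes were negative and 2 positive with *Drd2* at an adjusted p under 0.05. With *Mbp* 2 were negative and 3 positive. The same was not counted over all genes, so nothing is read from these counts.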
